A study of Homo sapiens with 18 samples.

Results

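Integrins, laminins and collagens were followed in LNCaP cells, a human prostate cancer line of epithelial origin. The members were all coding genes whose symbols mark them as an integrin alpha or beta chain, a laminin chain or a collagen chain. The names chose them, among genes whose row with the highest total count was a coding transcript. No difference between groups entered the rule. The rule found 80 of the 28100 genes of the count table: 24 integrins (16 alpha and 8 beta chains), 12 laminins and 44 collagens. Polyadenylated RNA was sequenced from 18 libraries in 6 groups of 3. All groups were wild-type LNCaP cells kept in RPMI with serum and harvested after 48 h of treatment. M1-polarised macrophages conditioned the medium of 3 groups: one with the kinase inhibitor IKK16 at 0.7 μmol/l, one with an equal amount of its solvent DMSO, and one with neither. Medium from M2-polarised and from unpolarised (M0) macrophages was given to one group each, and the control group received RPMI with serum and no conditioned medium. The macrophages were made from THP-1, a human monocytic leukaemia line, and each conditioned medium was diluted 1:4. Each conditioned medium is a mixture of what the macrophages released, so its label does not name a single factor.

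Integrins are receptors made of one alpha and one beta chain that span the plasma membrane and tie the cell to its matrix. Laminins are trimers of one alpha, one beta and one gamma chain and form the sheet of the basement membrane, together with the network of type IV collagen. Fibrillar collagens give connective tissue its strength, and several other collagens anchor fibrils or membranes to each other. Prostate epithelium rests on a laminin-rich basement membrane, and basal cells are held to it by hemidesmosomes, which contain integrin alpha 6 beta 4. IKK16 inhibits the IκB kinases, which release the transcription factor NF-kB from its inhibitors.

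Promoter sequences are shown for LAMB3, ITGB6, ITGB8 and COL27A1. These are 4 of the 5 members that reached 1 CPM, were at least 2-fold higher in M1 medium than in control, and were at least 2-fold lower with IKK16 than with DMSO, with both differences past an adjusted p of 0.05. CPM is edgeR's unit of counts scaled to library size, here of a gene's most abundant transcript row and with TMM scaling. COL22A1, the other member that met these conditions, is given by its values alone. The sequences are from RefSeq, build GRCh38.p14, and run 5′ to 3′. Each covers 250 bases before to 50 bases after the start site given for its promoter. For LAMB3 and ITGB6 that site is the outer end of the gene. The windows of ITGB8 and COL27A1 lie inside the genes, which begin at bases 20329766 and 114154098, so they do not cover the gene start. LAMB3 is at chr1:209652376-209652675 on the minus strand, ITGB6 at chr2:160200223-160200522 on the minus strand, ITGB8 at chr7:20330650-20330949 on the plus strand and COL27A1 at chr9:114155287-114155586 on the plus strand. Capitals mark matches, on either strand, to an NF-kB-like motif of 10 bases, either GGG, any 2 bases, TT, any base and CC, or GGGA, any 4 bases and CC; a stretch that fits both forms counts once.
LAMB3: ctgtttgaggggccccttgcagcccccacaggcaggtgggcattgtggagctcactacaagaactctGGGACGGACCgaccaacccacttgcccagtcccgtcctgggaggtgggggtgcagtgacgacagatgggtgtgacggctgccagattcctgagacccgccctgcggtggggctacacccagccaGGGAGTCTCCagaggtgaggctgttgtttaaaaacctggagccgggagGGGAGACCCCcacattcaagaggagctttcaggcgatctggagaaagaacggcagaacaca
ITGB6: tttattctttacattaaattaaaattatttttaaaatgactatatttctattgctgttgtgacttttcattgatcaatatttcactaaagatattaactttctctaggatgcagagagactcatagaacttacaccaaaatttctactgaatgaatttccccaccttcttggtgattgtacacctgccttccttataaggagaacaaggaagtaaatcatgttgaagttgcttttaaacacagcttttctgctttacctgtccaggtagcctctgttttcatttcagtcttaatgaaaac
ITGB8: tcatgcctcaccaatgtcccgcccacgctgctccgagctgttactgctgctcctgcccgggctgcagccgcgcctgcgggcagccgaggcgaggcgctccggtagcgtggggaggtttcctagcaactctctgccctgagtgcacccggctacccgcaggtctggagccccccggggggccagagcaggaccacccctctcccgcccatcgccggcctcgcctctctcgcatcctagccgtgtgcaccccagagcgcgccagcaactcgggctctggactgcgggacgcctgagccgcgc
COL27A1: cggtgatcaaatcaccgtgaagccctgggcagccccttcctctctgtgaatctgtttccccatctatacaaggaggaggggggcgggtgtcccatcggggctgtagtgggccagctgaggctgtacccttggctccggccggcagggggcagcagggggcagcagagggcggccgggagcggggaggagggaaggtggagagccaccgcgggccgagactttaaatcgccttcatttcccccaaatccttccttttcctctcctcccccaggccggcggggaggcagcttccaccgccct

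LAMB3 held 3 matches, which began 183, 59 and 11 bases before its start site, and the windows shown for the other 3 genes held none. Such matches are common: 26.9% of 27305 promoters held at least 1 and 1.17% held 3 or more. Of the 80 members, 56 had a promoter in the table, and 20 of them (35.7%) held a match. An AP-1 motif, TGANTCA with N for any base, was in 7.76% of all promoters and in 2 of the 56, those of ITGA5 and LAMA3. A match describes the letters in this window and says nothing of binding.

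Of the 80 members, 58 had enough counts to be tested: 20 integrins, 11 laminins and 27 collagens. Another 22 were too low, with at most 101 counts over the 18 libraries and a group mean of at most 0.274 CPM. These were 17 collagens, ITGA4, ITGA11, ITGAX, ITGB3 and LAMA4, and 2 of the collagens (COL1A2 and COL6A5) had no count in any library. A group mean of 1 CPM or more was reached by 49 members (18 integrins, 9 laminins and 22 collagens). Libraries held 24202741.5 to 33814818 gene counts, and a count of 0 in a library allows up to 3 counts, or 0.0887 to 0.124 CPM. Differences were tested with the quasi-likelihood test of edgeR, fitted on 17073 genes, and a gene passed at a Benjamini-Hochberg adjusted p under 0.05. Nothing in the labels says that numbered replicates are separate cultures, so the p-values reflect the spread among 3 libraries, and that spread may be technical.

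The prostate identity of the cells was checked first. All 11 prostate epithelium markers, among them KLK3, were above 1 CPM in every group. Their summed level was 2640 to 2750 CPM in M1 medium and 8830 to 9150 CPM in control. KLK3 held the largest part of that fall, with 154 CPM in M1 medium and 3710 CPM in control. The markers did not move as one. In M1 medium 7 were lower and 3 (KRT8, EPCAM and FOLH1) were higher, beside 32.1% and 32.7% of all genes, and KRT18 did not pass. Myeloid markers summed to 227 to 247 CPM in M1 medium and 230 to 233 CPM in control. Most of that sum was CSF1R, with 195 CPM in M1 medium and 223 CPM in control. Of the 18 myeloid markers, PTPRC, TYROBP, CYBB, MRC1, FCGR3A and LST1 had no count in M1 medium. Of the 7 that could be tested, CD68, LYZ and LAPTM5 were higher in M1 medium, and SPI1 and CSF1R were lower. CD68 averaged 36.8 CPM in M1 medium and 4.93 CPM in control, LYZ 2.28 and 0.0563 CPM, and LAPTM5 0.804 and 0.0227 CPM. Fibroblast markers summed to 23.3 to 26.4 CPM in M1 medium and 19.2 to 20.7 CPM in control, and endothelial markers to 7.07 to 12.1 CPM and 19.4 to 23.7 CPM. The libraries come from whole cultures, so fewer cells of a kind and less RNA per cell cannot be told apart.

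The summed level of the 80 genes was 3020 ± 36.2 CPM in M1 medium and 1910 ± 44.1 CPM in control (SD, n = 3 each). Integrins held most of that difference, with 1420 ± 52.1 CPM in M1 medium and 690 ± 30.9 CPM in control. Laminins summed to 1040 ± 54.3 CPM in M1 medium and 803 ± 23.4 CPM in control, and collagens to 559 ± 31.2 and 416 ± 17.5 CPM. In each of the 3 classes, every M1 library was above every control library. Within each class, single genes changed in both directions. ITGAV held the largest part of the integrin difference, and LAMB3 that of the laminin difference.

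Of the 58 tested members, 30 rose and 17 fell in M1 medium against control, while 11 did not pass. The members' share of higher calls was 51.7%, against a background of 32.7% of all 17073 genes, and their share of lower calls was 29.3%, against 32.1%. A change of at least 2-fold was called upward in 18 members and downward in 7, beside 10.2% and 7.95% of all genes. The median log2 fold change was 0.35 over the 58 members and -0.004 over all genes tested. By class, 12 of 20 integrins, 5 of 11 laminins and 13 of 27 collagens were higher, and 6, 3 and 8 were lower. Of the 47 calls, 40 held under every alternative analysis. The other 7 were COL12A1, COL26A1, COL4A2, COL4A3, COL5A2, ITGB1 and ITGB2, all with changes of at most 1.70-fold. Leaving out 1 library ended each of these calls: M1 replicate 2 for COL12A1 (adjusted p = 0.0897 in edgeR), control replicate 2 for ITGB1 (0.0723 as the highest over its alternatives), and control replicate 1 or M1 replicate 3 for ITGB2 (up to 0.0593). For COL4A3 it was control replicate 3 or M1 replicate 1 (up to 0.175), for COL4A2 control replicate 2 or 3 or M1 replicate 1 or 3 (up to 0.225), and for COL5A2 and COL26A1 control replicate 1 or 2 or M1 replicate 1 or 2 (up to 0.157 and 0.247). Leaving out a library also makes its group smaller, so a lost call does not show that the library carried the difference.

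**Figure D1:**
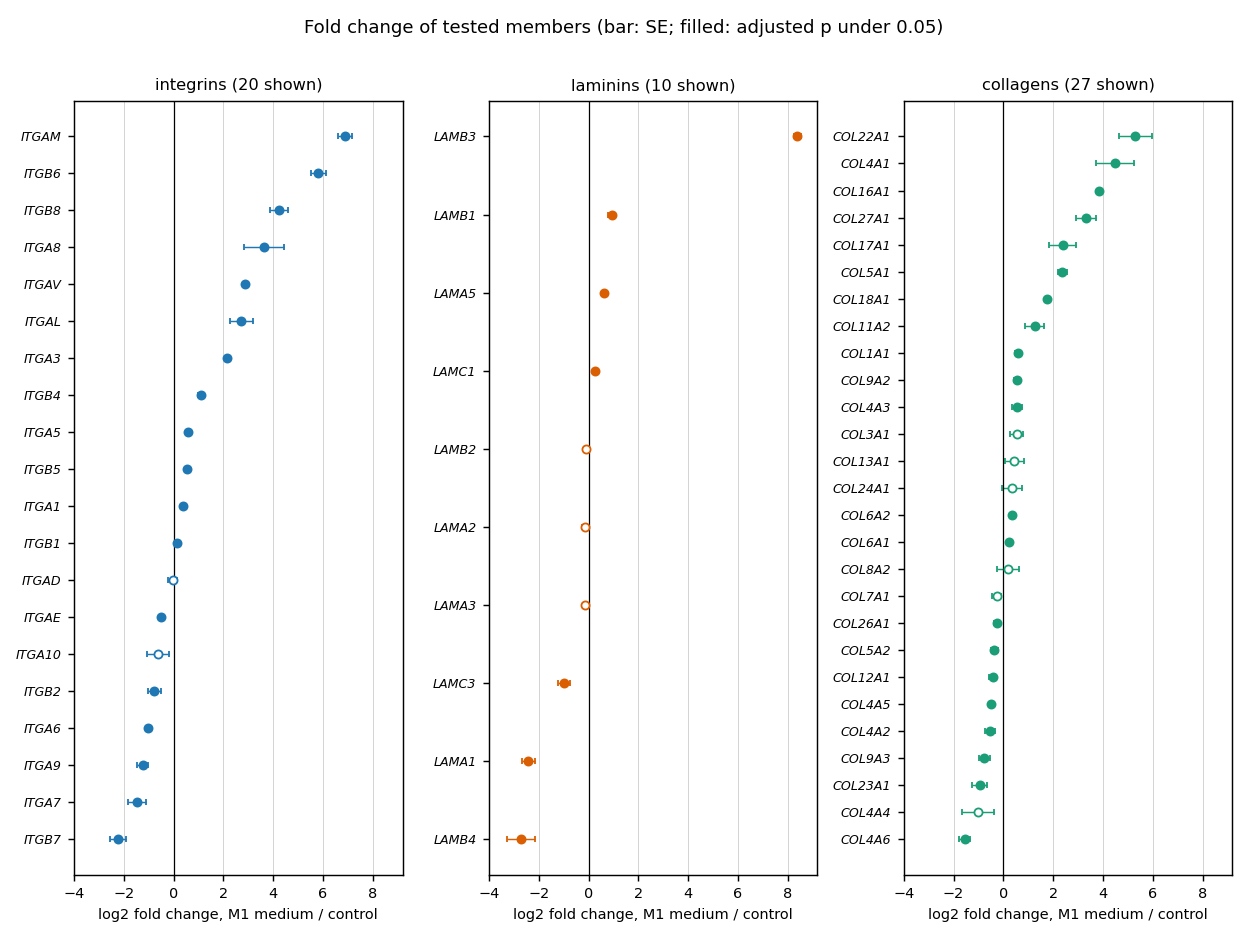
The plot of fold changes gives, for 57 of the 58 tested members, the log2 fold change of M1 medium over control on the x axis with its SE, in panels for integrins, laminins and collagens. Filled points passed an adjusted p of 0.05 in edgeR; LAMB3 stood furthest to the right at 8.39 and LAMB4 furthest to the left at -2.71.

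The alpha v chain ITGAV, which pairs with several beta chains to bind fibronectin, vitronectin and the latent form of TGF-beta, was the integrin with the highest level per length in M1 medium. ITGAV had 729, 790 and 697 CPM in the M1 libraries, against 98.6, 95.6 and 113 CPM in the control libraries. Every M1 library was above every control library, and the log2 fold change was 2.85 ± 0.07 (SE; 7.22-fold, adjusted p = 8.55e-21 in edgeR). Per kilobase of transcript, ITGAV reached 105 CPM in M1 medium and 14.5 CPM in control, while ITGB1, the common beta chain, had 92.7 and 84.4 CPM. So the ITGAV level passed that of ITGB1 in M1 medium and was below it in control.

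ITGB6 and ITGB8, beta chains that pair with alpha v, were near 0 in control libraries. ITGB6, the beta chain of an epithelial receptor for latent TGF-beta, had 5.58, 6.02 and 5.91 CPM in the M1 libraries, against 0.0658, 0.176 and 0.0621 CPM in the control libraries. These were 535 counts in M1 medium and 9 in control, a ratio of 59.0 with a 95% exact interval of 30.8 to 130 that covers counting error only. ITGB8, the beta chain of another receptor for latent TGF-beta, had 1.86, 1.84 and 1.53 CPM in M1 medium, against 0.0988, 0.0702 and 0.0931 CPM in control. For ITGB8 the ratio of counts was 19.9 (interval 9.84 to 46.8), and neither gene's groups overlapped. Both passed in edgeR, with log2 fold changes of 5.82 ± 0.30 and 4.24 ± 0.37 (SE; adjusted p = 4.0e-14 and 4.87e-10).

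The more abundant partners of alpha v moved far less. ITGB5, which forms a vitronectin receptor with alpha v, averaged 63.9 ± 3.6 CPM in M1 medium and 44.1 ± 1.27 CPM in control (SD, n = 3 each; log2 fold change 0.54 ± 0.07, adjusted p = 5.48e-07 in edgeR). ITGB1 averaged 337 ± 5.59 CPM in M1 medium and 307 ± 18.8 CPM in control, a log2 difference of 0.14 ± 0.05 that is among the calls lost under an alternative. ITGB3, the remaining partner, had 5 counts in M1 medium and 22 in control and could not be tested. Per kilobase, ITGB6 (1.33 CPM) and ITGB8 (0.199 CPM) remained below ITGB5 (14.6 CPM) in M1 medium. ITGA5 and ITGA8 also bind the RGD sequence of fibronectin and related ligands, and both pair with ITGB1. ITGA5 averaged 61.9 ± 0.014 CPM in M1 medium and 42.0 ± 2.19 CPM in control (log2 fold change 0.56 ± 0.06, adjusted p = 4.05e-08 in edgeR). ITGA8 was low throughout, with 42 counts in M1 medium and 3 in control, a ratio of 13.9 (95% exact interval 4.44 to 70.1, counting error only).

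The alpha chains that bind laminin changed in opposite directions. ITGA3, which pairs with beta 1, had 32.7, 31.9 and 35.1 CPM in M1 medium, against 8.79, 6.92 and 6.76 CPM in control (log2 fold change 2.15 ± 0.09, adjusted p = 1.02e-15 in edgeR). ITGA6, which pairs with beta 1 or beta 4, had 31.7, 28.8 and 31.5 CPM in M1 medium, against 62.9, 55.4 and 67.2 CPM in control (-1.01 ± 0.08, adjusted p = 2.09e-10). The groups did not overlap for either gene. Per kilobase, ITGA3 had 6.8 CPM in M1 medium and 1.53 CPM in control, and ITGA6 had 8.65 and 17.4 CPM, so the levels of the alpha chains were closer in M1 medium. ITGB4, the hemidesmosome beta chain that pairs with alpha 6, had 7.54, 7.21 and 7.41 CPM in M1 medium, against 3.39, 3.76 and 3.10 CPM in control (1.11 ± 0.11, adjusted p = 5.48e-09 in edgeR). ITGA7, a laminin receptor of muscle, fell to 0.599, 0.544 and 0.0979 CPM in M1 medium, against 1.15, 1.19 and 1.09 CPM in control (-1.46 ± 0.36, adjusted p = 1.32e-03 in edgeR).

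Collagen-binding chains and ITGA9 follow. ITGA1, a collagen receptor chain, averaged 73.6 ± 2.82 CPM in M1 medium and 57.2 ± 1.71 CPM in control (log2 fold change 0.36 ± 0.05, adjusted p = 5.39e-07 in edgeR). ITGA10, another collagen receptor chain, averaged 0.340 and 0.525 CPM and did not pass (adjusted p = 0.199 in edgeR). ITGA9, which binds tenascin C and other ligands, had 1.10, 1.09 and 1.11 CPM in M1 medium, against 3.06, 2.53 and 2.27 CPM in control (-1.25 ± 0.22, adjusted p = 2.51e-05 in edgeR), with no overlap. The collagen receptor gene ITGA2 was left out of the 80 because its most abundant row was a noncoding transcript. That row averaged 18.3 CPM in M1 medium and 10.1 CPM in control (0.86 ± 0.14, adjusted p = 8.66e-06 in edgeR). ITGA2B, whose symbol is outside the rule, averaged 0.741 CPM in M1 medium and 1.08 CPM in control and did not pass (adjusted p = 0.314 in edgeR).

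Integrin chains known from leukocytes did not move together. ITGAM, the alpha M chain of a complement receptor of myeloid cells, had 18.3, 20.4 and 21.1 CPM in M1 medium, against 0.0329, 0.105 and 0.341 CPM in control. The count ratio of ITGAM was 121 (1825 counts in M1 medium and 15 in control, 95% exact interval 73.0 to 216 for counting error only), and the fit gave a log2 fold change of 6.88 ± 0.28 (SE, adjusted p = 2.56e-16 in edgeR). Its obligate partner ITGB2 had 1.51, 1.56 and 1.14 CPM in M1 medium, against 2.80, 2.25 and 2.14 CPM in control. ITGB2 was thus lower in every M1 library (-0.77 ± 0.25, adjusted p = 0.0107 in edgeR), although the call was lost without control replicate 1 or M1 replicate 3 (up to 0.0593). Per kilobase, ITGAM had 5.45 CPM in M1 medium and 0.0437 CPM in control, and ITGB2 had 0.483 and 0.822 CPM.

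ITGAL, the alpha L chain of a lymphocyte receptor for ICAM1, had 0.851, 0.782 and 1.04 CPM in M1 medium, against 0.165, 0.105 and 0.124 CPM in control (log2 fold change 2.72 ± 0.46, adjusted p = 1.88e-05 in edgeR). ITGAX, the alpha X chain of myeloid cells, had 22 counts over the 3 M1 libraries, 7 with DMSO and 13 with IKK16, and none in the M2, M0 and control libraries; it was too low to be tested. ITGAD, the alpha D chain, averaged 2.06 ± 0.40 CPM in M1 medium and 2.13 ± 0.0502 CPM in control and did not pass (-0.04 ± 0.17, adjusted p = 0.844 in edgeR). The chains of the E-cadherin receptor of mucosal T cells were both lower. ITGAE averaged 38.0 ± 4.57 CPM in M1 medium and 53.6 ± 0.632 CPM in control (-0.50 ± 0.08, adjusted p = 5.97e-06 in edgeR). ITGB7 had 0.315, 0.170 and 0.522 CPM in M1 medium, against 1.91, 1.23 and 1.71 CPM in control (-2.25 ± 0.32, adjusted p = 1.64e-06 in edgeR). ITGA4, the other partner of ITGB7, had 13 counts in M1 medium and 1 in control and was not tested. PTPRC, a marker of all leukocytes including macrophages, had no count in the M1 libraries in which ITGAM had 1825. Of the 7 tested myeloid markers, CD68, LYZ and LAPTM5 moved with ITGAM, while CD33 and CORO1A did not pass. SPI1 (0.13 CPM in M1 medium and 0.531 CPM in control, -1.98) and CSF1R (-0.2) were lower in M1 medium. The part of these markers in the result was not tested. ICAM1, a ligand of alpha M, alpha L and alpha X integrins, averaged 23.4 CPM in M1 medium and 0.0765 CPM in control (8.17 ± 0.24, adjusted p = 5.15e-19 in edgeR).

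**Figure D2:**
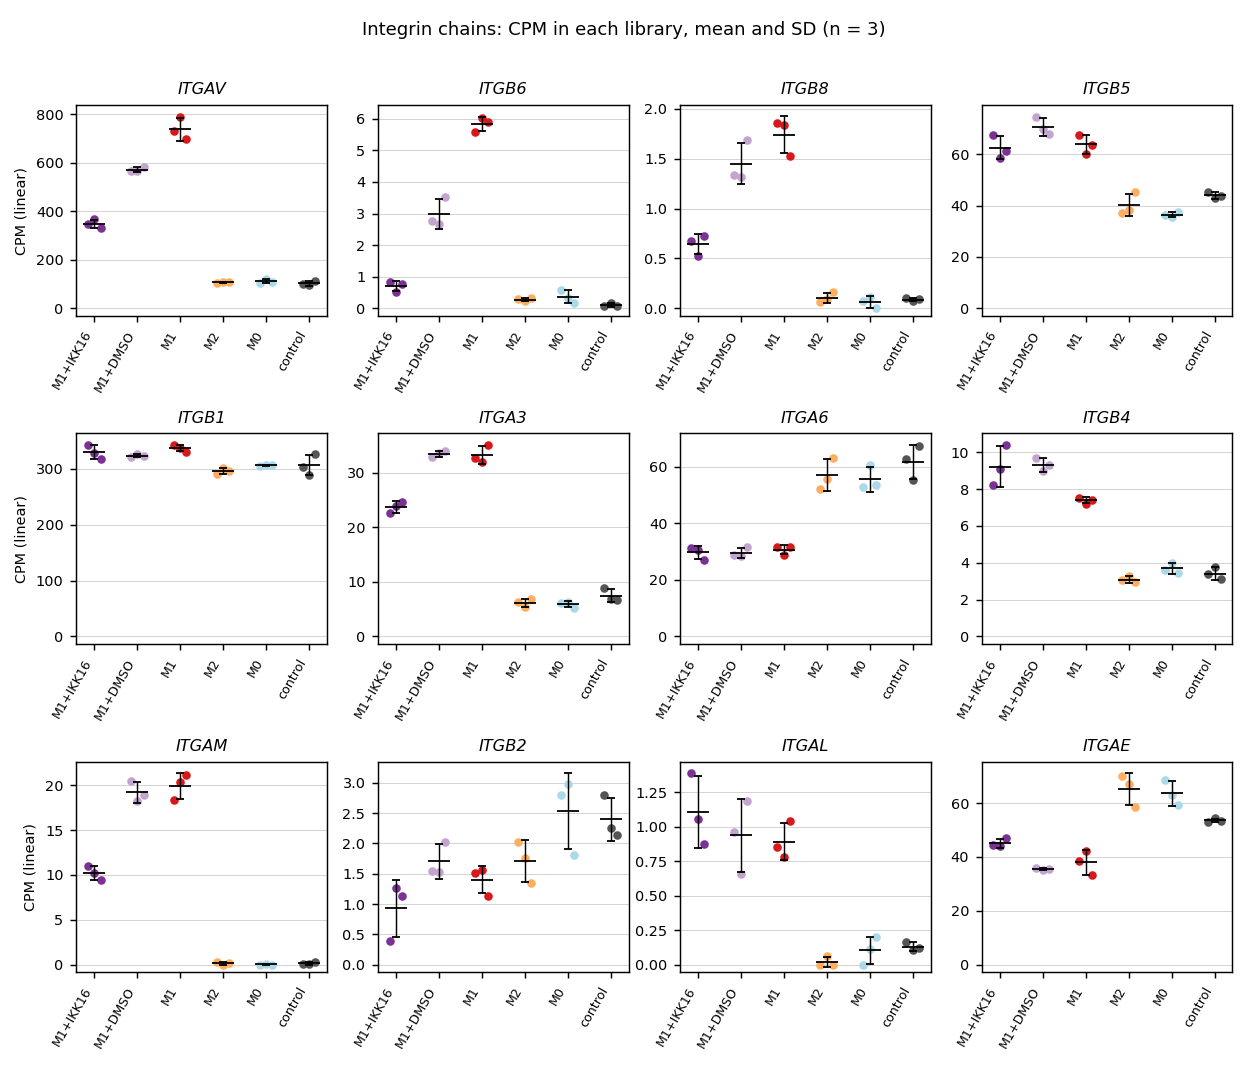
The plot of integrin levels gives CPM on linear y axes for 12 integrin chains in each of the 6 groups, with 1 point per library and the mean and SD over 3 libraries. ITGAV, ITGB6, ITGB8, ITGA3 and ITGAM were highest in M1 medium with or without DMSO and lower with IKK16, whereas ITGA6 was between 27.2 and 31.7 CPM in all 3 groups with M1 medium.

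Laminin chains were dominated in change by a single gene. LAMB3, the beta 3 chain of the epithelial laminin that hemidesmosome integrins bind, had 131, 131 and 150 CPM in M1 medium, against 0.263, 0.597 and 0.372 CPM in control. The log2 fold change of 8.39 ± 0.13 (SE; 335-fold, adjusted p = 3.06e-24 in edgeR) was larger in size than that of any other tested member. LAMA3, the alpha 3 chain with which beta 3 is known to assemble, had 116, 120 and 115 CPM in M1 medium, against 127, 123 and 141 CPM in control. Every M1 library was below every control library for LAMA3, but the difference did not pass (-0.15 ± 0.07, adjusted p = 0.0718 in edgeR).

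Per kilobase of transcript, the levels of these chains were 33.9 CPM for LAMB3 and 11.9 CPM for LAMA3 in M1 medium, against 0.101 and 13.2 CPM in control. LAMB3 was therefore below LAMA3 in control and above it in M1 medium. Shorter coding transcripts of LAMA3, of 5007 and 5671 bases, held 55.4 CPM in M1 medium and 62.7 CPM in control in their own rows, reads they share with the long transcripts included. The 3 transcript rows of LAMB3 differed little, with 137 to 138 CPM in M1 medium.

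The other laminin chains had smaller changes than LAMB3. LAMA1, the alpha chain of the laminin of early embryos, had 0.851, 0.374 and 0.816 CPM in M1 medium, against 3.56, 4.00 and 3.51 CPM in control, with no overlap (log2 fold change -2.42 ± 0.25, adjusted p = 1.16e-08 in edgeR). LAMA5, the widespread alpha chain of adult epithelial basement membranes, averaged 161 ± 20.7 CPM in M1 medium and 106 ± 6.67 CPM in control (0.61 ± 0.08, adjusted p = 5.44e-07 in edgeR). LAMB1 had 5.08, 5.20 and 5.06 CPM in M1 medium, against 2.21, 2.46 and 3.35 CPM in control (0.93 ± 0.15, adjusted p = 6.96e-06 in edgeR). LAMB2, the other widespread beta chain, did not pass at 192 ± 13.7 CPM in M1 medium and 204 ± 10.1 CPM in control (adjusted p = 0.246 in edgeR). LAMC1, the gamma chain shared by most laminins, averaged 419 ± 13.1 CPM in M1 medium and 346 ± 19.1 CPM in control (0.28 ± 0.08, adjusted p = 4.28e-03 in edgeR). LAMA2, the alpha chain of muscle laminin, did not pass (adjusted p = 0.219 in edgeR). LAMC3 and LAMB4 were low and fell by 0.98 and 2.71 on the log2 scale, with group means of 0.923 and 0.0877 CPM in M1 medium and 1.83 and 0.597 CPM in control. The table also holds antisense genes named for LAMA5, LAMC1, COL18A1, COL4A2, COL5A1, ITGA6, ITGA9, ITGB2 and ITGB8, and since the use of strand is not stated, reads of a gene and its antisense partner cannot be told apart.

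**Figure D3:**
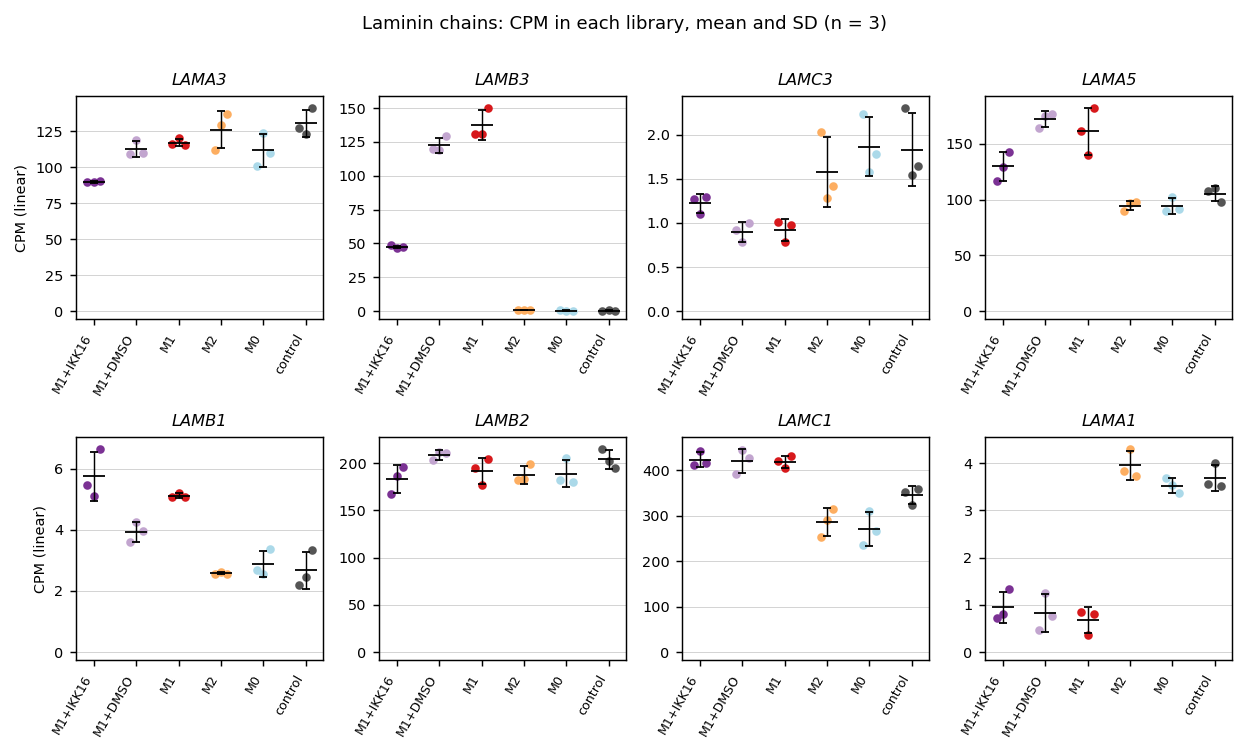
The plot of laminin levels gives CPM on linear y axes for 8 laminin chains in each of the 6 groups, with 1 point per library and the mean and SD over 3 libraries. LAMB3 was near 0 in the M2, M0 and control libraries and between 119 and 150 CPM in M1 medium with or without DMSO, while LAMA3 was at 101 CPM or more in each of those libraries.

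Of the 27 tested collagens, 13 rose and 8 fell, beside 32.7% and 32.1% of all genes. COL16A1, a fibril-associated collagen of skin and other matrices, had 31.9, 29.5 and 30.2 CPM in M1 medium, against 1.91, 1.90 and 2.51 CPM in control (log2 fold change 3.85 ± 0.11, adjusted p = 2.14e-19 in edgeR). COL18A1, the basement membrane collagen whose end fragment is endostatin, had 105, 112 and 131 CPM in M1 medium, against 34.5, 36.4 and 33.3 CPM in control (1.74 ± 0.07, adjusted p = 9.57e-16 in edgeR). COL5A1, a chain of the type V collagen that nucleates fibrils, had 9.74, 9.45 and 10.4 CPM in M1 medium, against 2.34, 1.47 and 1.89 CPM in control (2.37 ± 0.18, adjusted p = 8.17e-11 in edgeR). The groups did not overlap for any of these genes. COL5A2, the second chain of type V collagen, averaged 3.87 CPM in M1 medium and 4.98 CPM in control. Its lower call was lost when single libraries were left out, as given above.

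Low collagens that reached 1 CPM in M1 medium and were called at least 2-fold higher there than in control were COL17A1, COL27A1, COL22A1 and COL11A2. COL17A1, the transmembrane collagen of hemidesmosomes, had 1.73, 1.46 and 1.66 CPM in M1 medium, against 0.461, 0.492 and 0 CPM in control (2.38 ± 0.53, adjusted p = 4.52e-04 in edgeR). COL27A1, a fibrillar collagen of cartilage, had 1.54, 2.07 and 1.73 CPM in M1 medium, against 0.198, 0.140 and 0.186 CPM in control (163 and 16 counts, ratio 10.1, 95% exact interval 6.04 to 18.1 for counting error only). COL22A1, a collagen of tissue junctions, had 1.01, 0.986 and 1.11 CPM in M1 medium and 2 counts in all in control (ratio 47.1, interval 12.7 to 395). COL11A2, a cartilage collagen chain, had 1.14, 1.67 and 0.881 CPM in M1 medium, against 0.527, 0.702 and 0.310 CPM in control (1.26 ± 0.38, adjusted p = 6.19e-03 in edgeR). For all 4 genes the M1 libraries stood above the control libraries.

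Chains that are known to assemble with each other did not always change together. COL1A1, the alpha 1 chain of type I collagen, averaged 31.0 ± 2.73 CPM in M1 medium and 20.8 ± 1.83 CPM in control (0.58 ± 0.10, adjusted p = 3.09e-05 in edgeR), while COL1A2, the alpha 2 chain, had no count in any of the 18 libraries. Type VI collagen, which forms microfibrils, had small rises in its first chains. COL6A1 averaged 173 ± 6.44 CPM in M1 medium and 149 ± 10.4 CPM in control, and COL6A2 74.7 ± 3.9 and 58.9 ± 4.72 CPM (0.22 ± 0.06 and 0.34 ± 0.06, adjusted p = 2.01e-03 and 2.57e-05 in edgeR). COL6A3, the third chain, had 21 counts in M1 medium and 11 in control and was not tested. COL9A2, a chain of the cartilage fibril-associated type IX collagen, averaged 19.5 ± 2.58 CPM in M1 medium and 13.4 ± 1.04 CPM in control and passed upward, while its partner COL9A3 averaged 2.41 ± 0.326 and 4.13 ± 1.0 CPM and passed downward (0.54 ± 0.11 and -0.77 ± 0.21, adjusted p = 1.29e-04 and 3.05e-03 in edgeR). COL3A1, which forms type III collagen, did not pass (adjusted p = 0.0816 in edgeR).

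The 6 type IV collagen genes lie in 3 pairs, head to head, with 126 bases between COL4A1 and COL4A2, 135 between COL4A4 and COL4A3 and 379 between COL4A6 and COL4A5 in GRCh38.p14. The promoter of COL4A1 is shown because COL4A1 rose in M1 medium while COL4A2, which shares this short stretch, did not rise. The sequence is from RefSeq, at chr13:110307108-110307407 on the minus strand, and the capitals mark its single NF-kB-like match, which begins 87 bases before the start. The same stretch, read on the other strand, is also a match in the COL4A2 promoter, 49 bases before the start of COL4A2. It therefore does not set these genes apart.
COL4A1: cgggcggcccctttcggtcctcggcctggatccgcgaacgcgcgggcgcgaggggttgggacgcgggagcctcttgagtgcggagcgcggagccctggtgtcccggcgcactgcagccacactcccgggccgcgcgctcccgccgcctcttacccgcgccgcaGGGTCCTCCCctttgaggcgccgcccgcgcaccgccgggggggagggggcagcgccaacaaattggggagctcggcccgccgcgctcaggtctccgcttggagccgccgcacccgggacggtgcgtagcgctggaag

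COL4A1 had 0.410, 0.748 and 0.587 CPM in M1 medium, against 0.0329, 0.0351 and 0 CPM in control (53 and 2 counts, ratio 26.3, 95% exact interval 6.93 to 223 for counting error only; adjusted p = 2.37e-05 in edgeR). COL4A2 had 1.17, 1.67 and 1.40 CPM in M1 medium, against 1.51, 2.07 and 2.54 CPM in control. The COL4A2 groups overlapped, and its lower call (-0.54 ± 0.22, adjusted p = 0.0373 in edgeR) was lost when single libraries were left out, as given above. COL4A5 had 69.9, 61.2 and 68.3 CPM in M1 medium, against 99.4, 88.2 and 96.1 CPM in control, and COL4A6 had 1.01, 0.850 and 0.816 CPM, against 3.13, 2.28 and 2.48 CPM. Both genes of this pair were lower in every M1 library (-0.51 ± 0.07 and -1.56 ± 0.22, adjusted p = 1.09e-06 and 1.97e-06 in edgeR). COL4A3 averaged 2.29 CPM in M1 medium and 1.58 CPM in control, a call that was lost when single libraries were left out. COL4A4 averaged 0.200 and 0.406 CPM and did not pass (adjusted p = 0.168 in edgeR). Per kilobase, COL4A5 had 10.3 CPM in M1 medium and 14.7 CPM in control, and COL4A6 had 0.136 and 0.4 CPM.

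**Figure D4:**
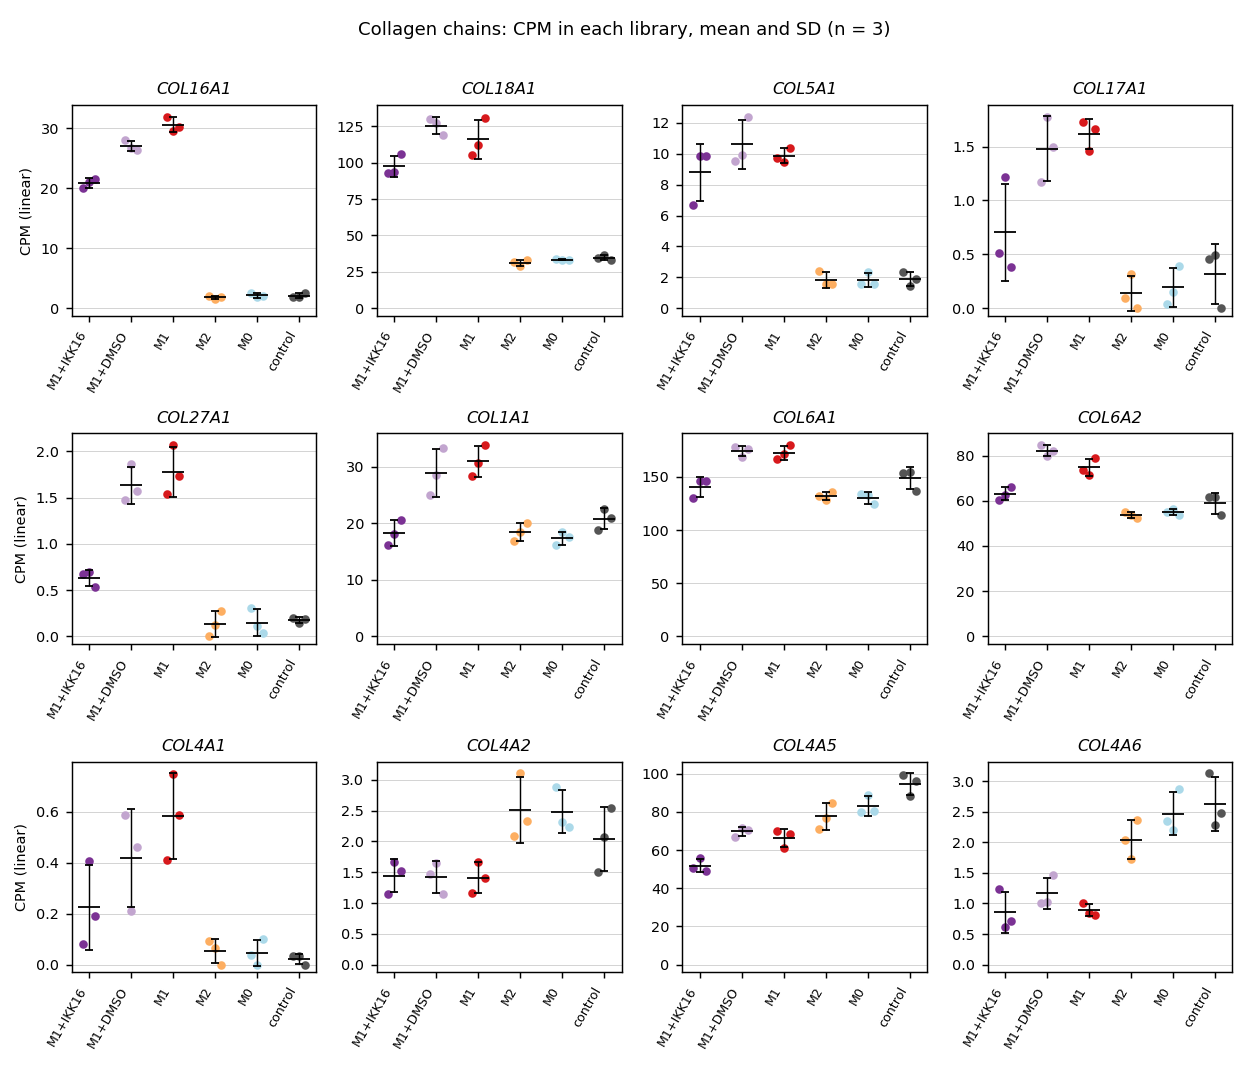
The plot of collagen levels gives CPM on linear y axes for 12 collagen chains in each of the 6 groups, with 1 point per library and the mean and SD over 3 libraries. COL16A1, COL18A1 and COL5A1 were several-fold higher in the 3 groups with M1 medium, while COL4A5 and COL4A6 were lower there than in control.

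The comparison of IKK16 with DMSO, both in M1 medium, measured the difference made by adding this inhibitor at the dose used. No group received IKK16 without M1 medium, and how far the response depends on the IκB kinases was not tested. Of the 58 tested members, 18 were lower with IKK16 and 3 were higher, shares of 31.0% and 5.17% beside 13.2% and 13.9% of all genes. At least 2-fold, 5 members were lower (1.66% of all genes) and none were higher (0.832% of all genes). The median log2 fold change was -0.23 over the members and 0.002 over all genes. Summed over the 80 genes, the level was 2350 ± 46.0 CPM with IKK16 and 2870 ± 41.7 CPM with DMSO (SD, n = 3 each). By class, 6 integrins, 4 laminins and 8 collagens were lower.

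LAMB3 had 48.6, 46.8 and 47.3 CPM with IKK16, against 120, 119 and 129 CPM with DMSO (log2 fold change -1.37 ± 0.07, adjusted p = 1.13e-12 in edgeR). ITGB6 had 0.832, 0.529 and 0.759 CPM with IKK16, against 2.77, 2.67 and 3.53 CPM with DMSO (-2.07 ± 0.24, adjusted p = 6.07e-07 in edgeR). ITGB8 had 0.673, 0.529 and 0.721 CPM with IKK16, against 1.34, 1.32 and 1.69 CPM with DMSO (-1.16 ± 0.27, adjusted p = 2.32e-03 in edgeR). None of these groups overlapped, and LAMB3 at 47.6 CPM with IKK16 was still 116-fold above control. COL27A1 had 0.673, 0.691 and 0.532 CPM with IKK16, against 1.47, 1.86 and 1.57 CPM with DMSO (-1.38 ± 0.34, adjusted p = 3.69e-03 in edgeR). COL22A1 had 0.119, 0.203 and 0.0759 CPM with IKK16, against 0.629, 1.35 and 0.307 CPM with DMSO (-2.56 ± 0.53, adjusted p = 1.11e-03 in edgeR). The DMSO libraries of COL22A1 spread widely, and all of them stood above the IKK16 libraries.

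ITGAV had 347, 366 and 330 CPM with IKK16, against 567, 564 and 583 CPM with DMSO (-0.72 ± 0.06, adjusted p = 5.62e-09 in edgeR). ITGAM had 11, 10.2 and 9.45 CPM with IKK16, against 20.5, 18.2 and 18.9 CPM with DMSO (-0.91 ± 0.15, adjusted p = 6.26e-05 in edgeR). ITGA3 had 22.6, 23.9 and 24.7 CPM with IKK16, against 32.9, 33.7 and 33.9 CPM with DMSO (-0.50 ± 0.08, adjusted p = 1.0e-04 in edgeR). The IKK16 libraries lay below all DMSO libraries for each of the 3 integrins. Myeloid markers summed to 250 to 263 CPM with IKK16 and 222 to 238 CPM with DMSO, mostly CSF1R, which was higher with IKK16 (226 CPM, against 193 CPM with DMSO). Of the 7 tested myeloid markers, CD68 and LYZ were lower with IKK16, as ITGAM was. CD68 averaged 25.1 CPM with IKK16 and 30.7 CPM with DMSO (-0.29), and LYZ 0.812 and 2.07 CPM (-1.34), and their part in the ITGAM result was not tested. Falls also passed for COL1A1 (-0.66), LAMA5 (-0.41), COL6A2 (-0.38), COL16A1 (-0.37), COL18A1 (-0.36), LAMA3 (-0.33) and COL6A1 (-0.31). COL4A5 and ITGB2, which were already lower in M1 medium, were lower again with IKK16 (-0.43 and -0.86), and LAMB2 fell by 0.19 on the log2 scale. The calls of ITGB2 and LAMB2 were lost without DMSO replicate 1 or 3 or IKK16 replicate 1, and that of LAMB2 also without DMSO or IKK16 replicate 2 (adjusted p up to 0.211 and 0.200 in edgeR).

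LAMB1, ITGAE and ITGA1 were higher with IKK16. LAMB1 had 5.47, 5.12 and 6.64 CPM with IKK16, against 3.61, 4.26 and 3.95 CPM with DMSO (0.54 ± 0.14, adjusted p = 6.36e-03 in edgeR). ITGAE averaged 45.1 ± 1.63 CPM with IKK16 and 35.5 ± 0.299 CPM with DMSO (0.34 ± 0.08, adjusted p = 2.13e-03 in edgeR). The ITGA1 difference of 0.14 ± 0.05 was lost under 7 alternatives, among them each DMSO library and IKK16 replicate 1 or 3 left out (adjusted p up to 0.128 in edgeR). Several members that M1 medium had moved showed differences near 0: ITGA6 averaged 29.7 ± 2.23 CPM with IKK16 and 29.6 ± 1.81 CPM with DMSO (0.01 ± 0.09, adjusted p = 0.962 in edgeR), and ITGB4 9.22 ± 1.11 and 9.31 ± 0.365 CPM (-0.01 ± 0.10, adjusted p = 0.954). COL5A1 (-0.26 ± 0.15), COL4A1 (-0.83 ± 0.56) and COL17A1 (-1.10 ± 0.48) did not pass (adjusted p = 0.221, 0.289 and 0.0988 in edgeR). The last 2 were each below 2 CPM and had a wide SE, and COL17A1 passed without IKK16 replicate 2 (-1.74).

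Set side by side, the M1 and IKK16 comparisons share no library. Of the 30 members higher in M1 medium, 14 were lower with IKK16 (46.7%), 2 were higher and 14 did not pass. Among all 5586 genes higher in M1 medium, 30.6% were lower with IKK16. Of the 17 members lower in M1 medium, ITGAE alone was higher with IKK16 (5.88%), beside 29.9% of all 5487 genes lower in M1 medium.

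**Figure D5:**
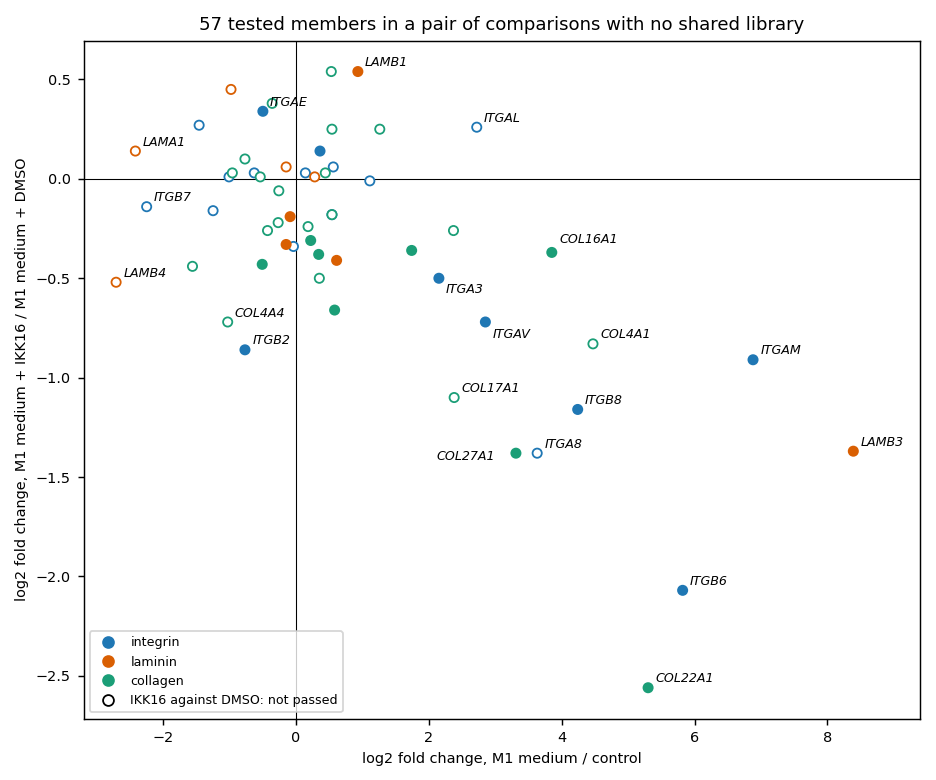
The plot of both comparisons sets, for 57 of the 58 tested members, the log2 fold change of M1 medium over control (x axis) against that of M1 medium with IKK16 over M1 medium with DMSO (y axis); filled points passed in the second. LAMB3, ITGB6, ITGB8, COL27A1, COL22A1 and ITGAM lay at the lower right, and LAMA1, ITGB7 and LAMB4 furthest to the left, the first 2 near the zero line.

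A few members also differed between M1 medium with DMSO and M1 medium alone. M1 medium with DMSO, against M1 medium alone, had 1 member higher (COL12A1) and 3 lower (ITGAV, ITGB6 and COL7A1), beside 2.56% and 1.97% of all genes. ITGAV averaged 571 ± 10.5 CPM with DMSO and 739 ± 47.2 CPM without it (-0.37 ± 0.06, adjusted p = 2.13e-03 in edgeR). ITGB6 averaged 2.99 ± 0.472 CPM with DMSO and 5.84 ± 0.228 CPM without it (-0.97 ± 0.17, adjusted p = 3.81e-03 in edgeR). Both were therefore lower with DMSO before IKK16 was added. COL7A1, the anchoring fibril collagen, averaged 2.11 and 3.64 CPM (-0.79), and COL12A1 4.00 and 2.78 CPM (0.51). Each of those calls was lost without M1 replicate 1 or 2 or any one DMSO library (adjusted p up to 0.197 and 0.273 in edgeR).

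M1 medium with IKK16 still differed from control in 39 members, 22 higher and 17 lower, beside 26.8% and 25.6% of all genes. Members that IKK16 had lowered and that were still above control included LAMB3 (log2 fold change 6.86 ± 0.13), ITGAM (5.92 ± 0.30), COL16A1 (3.30 ± 0.11), ITGB8 (2.81 ± 0.45), ITGB6 (2.79 ± 0.45) and ITGAV (1.76 ± 0.06). LAMA3, which had not passed in M1 medium alone, was lower with IKK16 than in control, with 89.8 ± 0.612 CPM and 130 ± 9.56 CPM (-0.53 ± 0.07, adjusted p = 1.56e-06 in edgeR). Of these 39 calls, 32 held under every alternative. COL23A1, COL3A1, COL4A1, COL4A4, COL9A3, LAMA2 and LAMC3 did not. Leaving out control replicate 1 ended the calls of COL3A1, COL4A4, COL9A3, LAMA2 and LAMC3 (adjusted p up to 0.232 in edgeR), as did IKK16 replicate 1 or 2. The calls of LAMA2 and LAMC3 were also lost without IKK16 replicate 3, and that of COL3A1 without control replicate 2. COL23A1 lost its call without control replicate 2 or IKK16 replicate 3 (0.0796), and COL4A1 without IKK16 replicate 2 (0.0870).

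M0 and M2 medium left most members near their control level. With M0 medium, 2 members were higher and 6 lower than in control, beside 7.06% and 4.51% of all genes. With M2 medium, 1 was higher and 2 were lower, beside 5.34% and 3.37%. LAMB3 averaged 0.670 ± 0.101 CPM in M2 medium, 0.473 ± 0.129 CPM in M0 medium and 0.411 ± 0.17 CPM in control. ITGAV averaged 107 ± 2.13 CPM in M2 medium, 111 ± 8.15 CPM in M0 medium and 102 ± 9.15 CPM in control. The members called with M0 medium were ITGAE and ITGB6, higher by 0.25 and 1.77, and ITGA3, ITGB5, LAMA3, LAMC1, COL6A1 and COL9A2, which fell by 0.19 to 0.39 on the log2 scale. Those called with M2 medium were ITGAE (0.28), LAMC1 (-0.27) and COL4A5 (-0.29). No call held under every alternative: all 8 with M0 medium were lost without control replicate 1 or M0 replicate 1, and all 3 with M2 medium without control replicate 1, M2 replicate 1 or M2 replicate 2. Some of them were also lost without control replicate 2 or 3 or M0 replicate 2 or 3, and the highest adjusted p for each call was between 0.0879 and 0.252 in edgeR. Across all genes the log2 fold change fell with transcript length, with a Spearman correlation of -0.326 for M0 medium and -0.281 for M2 medium against 0.065 for M1 medium, and its part in these calls was not tested beyond the analysis with that trend removed.

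M1 medium was also set against the other conditioned media, which carry macrophage products too. Against M0 medium, 30 members were higher and 16 lower (33.4% and 33.6% of all genes). Against M2 medium, 31 were higher and 12 lower (33.8% and 33.7%). LAMB3 was 292-fold higher in M1 than in M0 medium and 202-fold higher than in M2 medium, and ITGAV 6.67-fold and 6.90-fold. ITGB6 was 16.6-fold and 21.2-fold higher, and COL16A1 14.3-fold and 16.8-fold. Against M0 medium, the calls of COL4A3 (without M0 or M1 replicate 1, adjusted p up to 0.166 in edgeR) and ITGA8 (without M0 replicate 3, 0.0538) were lost. Against M2 medium, those of COL13A1 (without M2 replicate 1 or 3, up to 0.0757), COL4A5 (without M1 replicate 2 or M2 replicate 3, up to 0.0731) and LAMC3 (without M2 replicate 1, 0.0702) were lost. ITGA1 was lost in both with the length trend removed (0.988 and 0.411). Between M2 and M0 medium no member passed in edgeR in either direction, beside 0% and 0.105% of all genes, and DESeq2 called none. At an unadjusted p under 0.05, 7 of the 58 members (12.1%) and 928 of 17073 genes (5.44%) differed between M2 and M0 medium.

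Genes that serve these receptors and matrix chains were counted from lists fixed by function. Of 21 tested genes for collagen biosynthesis and crosslinking, 4 rose in M1 medium against control and 11 fell, beside 32.7% and 32.1% of all genes, with a median log2 fold change of -0.31. P4HA2, a collagen prolyl hydroxylase chain, was higher (40.7 CPM in M1 medium and 17.2 CPM in control, 1.24), whereas the crosslinking enzymes PLOD2 (5.70 and 17.3 CPM, -1.60) and LOX (0.656 and 2.18 CPM, -1.73) were lower. With IKK16, 4 of the 21 were higher than with DMSO and 2 lower, beside 13.9% and 13.2% of all genes. PLOD2 was among those higher with IKK16, at 17.8 CPM against 5.92 CPM with DMSO (1.58 ± 0.21, adjusted p = 3.75e-06 in edgeR). Of 29 tested integrin adaptors, 13 were higher and 10 lower in M1 medium against control, beside 32.7% and 32.1% of all genes (median -0.03). With IKK16, 3 of the 29 were higher than with DMSO and 9 lower, beside 13.9% and 13.2% of all genes. ZYX, the focal adhesion protein zyxin, averaged 221 CPM in M1 medium and 59.2 CPM in control (1.90), and FERMT1, the epithelial kindlin that activates beta chains, 3.87 and 15 CPM (-1.96). Of the other kindlins, FERMT2 was higher (21.8 CPM in M1 medium and 14.1 CPM in control, 0.63), and FERMT3 did not pass (adjusted p = 0.757 in edgeR).

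Of 20 tested genes for other adhesive matrix proteins, 8 rose and 6 fell in M1 medium against control, beside 32.7% and 32.1% of all genes (median 0.08). With IKK16, 8 were lower than with DMSO and 1 was higher, beside 13.2% and 13.9% of all genes. FN1, the gene of fibronectin and the ligand of alpha v and alpha 5 integrins, averaged 5260 CPM in M1 medium and 458 CPM in control (3.52 ± 0.11, adjusted p = 2.61e-18 in edgeR), and 2100 CPM with IKK16 and 4590 CPM with DMSO (-1.13 ± 0.10, adjusted p = 1.11e-08). TNC, the gene of tenascin C, averaged 3.34 CPM in M1 medium and 0.298 CPM in control (3.47). Among the 6 that fell, SMOC2 averaged 1.12 CPM in M1 medium and 6.05 CPM in control (-2.44), and SMOC1 1290 and 1840 CPM (-0.52). Of the 3 hemidesmosome partners, PLEC (164 and 115 CPM, 0.51) and CD151 (301 and 202 CPM, 0.57) were higher, and DST did not pass (-0.35, adjusted p = 0.0726 in edgeR). Of 7 tested ligands of leukocyte integrins, 5 were higher and 1 lower, beside 32.7% and 32.1% of all genes, among them CDH1, the E-cadherin ligand of the ITGAE and ITGB7 pair, with 988 CPM in M1 medium and 666 CPM in control (0.57). All these lists were tested in the same fit, with the median of all genes at -0.004.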

How the data were processed

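Expected counts for RefSeq transcripts, in multiples of 0.5 and not normalised, are what the authors deposited, in 1 table. HOMER 4.10, BWA 0.7.17 and Trimmomatic are named in the submitters' processing notes, with build hg38; the sources used here give neither their roles nor the strand setting. Of 70507 transcripts, 69830 were named with an NCBI gene table (GRCh38.p14) and 343 with GENCODE 29; 334, with 0.0883 to 0.1087% of a library's counts, stayed out. Each gene was represented by its row with the largest total, since transcripts of a gene share reads, so a switch between transcripts can look like a change in level; counts were rounded. The two-sided quasi-likelihood test of edgeR 4.0.16 (R 4.3.3) was fitted to the 18 libraries together, with TMM scaling and filterByExpr (17073 genes tested, 11027 not), and p-values were adjusted by Benjamini-Hochberg over all genes tested. The common biological coefficient of variation was 0.0627. SEs were derived from the log2 fold change and its F statistic. Levels per kilobase use the length of the counted transcript. Exact intervals are conditional binomial and cover counting error only, since PCR copies are not independent molecules. The test was tested on simulated data. Replicate pairs differed by more than sampling noise (chi-square per gene 2.667 to 20.945), and same-numbered libraries did not deviate together.

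Alternatives were DESeq2 1.42.0, its scaling within edgeR, no filter, a filter of 1 CPM in 3 libraries, the replicate block, the longest transcript, a length trend removed, the 2 groups alone and each library left out. Members with a value in every library had to pass with at least 2-fold and 1 CPM in M1 medium against control or IKK16 against DMSO; leukocyte integrins and chain partners were added. One tested laminin stays in all counts and sums but is not reported here by name or drawn. Members, lists and alternatives were chosen with earlier results of these data known.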

Additional observations from a re-analysis of the deposited data

How the results depend on the processing

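No call of a member reversed its direction. For the 20 members chosen by fold, 556 values from the alternatives kept their side of the threshold. Direction was compared only where a call had passed. The remaining 3 values changed side: COL17A1 passed in IKK16 against DMSO with no filter (-1.1), in the fit of the 2 groups alone (-1.1) and without IKK16 replicate 2 (-1.74). The counts of members for M0 medium against control moved most: the 2 higher calls became 4 with the length trend removed and 0 in the fit of the 2 groups alone, and the 6 lower calls became 3 and 2. For M2 medium against control, the 1 higher and 2 lower calls both became 0 in the fit of the 2 groups alone. For DMSO in M1 medium, the 1 higher call became 0 with the replicate block, 2 with the length trend removed and 2 in the fit of the 2 groups alone. The cause of these moves was not tested. Leaving out 1 library gave 0 to 2 higher and 0 to 6 lower calls for M0 medium, 0 to 3 and 0 to 4 for M2 medium, and 0 to 1 and 2 to 3 for DMSO. The other counts stayed within 1.5 times, at 29 to 30 higher and 14 to 16 lower for M1 medium against control and 2 to 3 and 16 to 18 for IKK16 against DMSO. The replicate numbers did not pair the libraries (correlations of -0.148 to 0.154 between same-numbered deviations), and the replicate block moved no other count by more than 1.5 times. Depth limits members near 0.1 CPM, where a library holds about 3 counts, and 3 libraries a group limit small changes.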
